A study of Mus musculus with 16 samples.

Results

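The Notch genes examined here were 3 receptors (Notch1, Notch2 and Notch3), 3 ligands (Jag1, Jag2 and Dll1), the DNA-binding effector Rbpj, and 3 targets of the HES and HEY family (Hes1, Hey1 and Heyl). They were chosen by name for their place in the Notch pathway. These 10 genes were followed among 21938 protein-coding genes on the mouse chromosomes. Each was searched for peaks within 3 kb of any of its annotated transcription start sites (TSSs), called its promoter here, in the rest of its body, and within 50 kb of a TSS.

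The peaks came from chromatin immunoprecipitation and sequencing (ChIP-seq) of mouse model tumours of clear cell sarcoma (mCCS), a soft-tissue sarcoma defined by fusions such as EWSR1::ATF1 (EA1). Of 16 samples, 4 each carried the antibody labels V5 (the tag on EA1), RNAPOL2 (described in the study's text as phosphorylated RNA polymerase II) and H3K27ac (a histone acetylation found at active promoters and enhancers), and 4 were input chromatin. All had the genotype EWSR1::ATF1: V5-tagged human EA1 cDNA was expressed from the Rosa26 promoter with green fluorescent protein, once Cre protein (TATCre), injected into the limbs at 4 weeks of age, had removed a stop cassette. The files hold 1 peak list per antibody, so each value below is a peak's score in that list and has no replicate error or depth. No tumour without EA1 was compared.

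The V5 list held 10665 peaks (median score 230), the RNAPOL2 list 20375 (median 246) and the H3K27ac list 27552 (median 212). A significance score is named in the study's text, without its statistic or scale, and whether it is the score in the lists is not said. Scores and ranks are therefore set side by side within 1 list at a time, with rank 1 the highest score and ties sharing the better rank. The V5 list is shorter than the total of V5 sites in the study's text, so a gene without a V5 peak is a gene without a peak in this list only. The tumours were bulk tissue, in which a peak from few cells and a weak peak in many cells cannot be told apart. Of 8 melanocytic marker genes, Mitf, Pmel and S100b had an H3K27ac promoter peak, Mitf and Pmel also had an RNAPOL2 promoter peak (those at Pmel were nearer to Cdk2), Dct had a V5 promoter peak (score 218) without the other marks, and Sox10, Mlana, Tyr and Tyrp1 had none. H3K27ac promoter peaks were listed for 3 of 5 endothelial markers (Kdr, Pecam1 and Cdh5), 2 of 3 pericyte markers (Cspg4 and Pdgfrb), 4 of 4 leukocyte markers (Ptprc, Csf1r, Adgre1 and Cd68, the last nearer to Mpdu1) and 0 of 5 skeletal muscle markers, against 58.6% of all coding genes. RNAPOL2 promoter peaks were listed for 1 gene in each of the endothelial (Kdr), pericyte (Cspg4) and leukocyte (Cd68) lists and for 0 of the muscle markers, against 53.5%. The share of any cell type in the Notch gene peaks was not tested.

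Notch receptors are membrane proteins that are cut by proteases when a ligand of the Jagged or Delta-like type on a neighbouring cell binds them. The released intracellular part enters the nucleus and joins RBPJ and Mastermind-like coactivators at target genes, among which HES and HEY genes encode repressors of transcription. Without it, RBPJ recruits corepressors. The pathway is known for its roles in blood vessels and their pericytes, in muscle progenitors and in the neural crest lineage.

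The sequences under the V5 peaks that the results turn on are shown first. The 6 sites in the next lines are the best-scoring V5 peaks of Notch2, Notch3, Jag1, Hes1 and Heyl, with a Notch2 intronic peak, each shown where it held a sequence of the kind bound by ATF1 or its relatives. Capitals mark the ATF/CREB palindrome TGACGTCA, its variants TGANNTCA, or the AP1 motif TGAGTCA, found on either strand. All sequences are read 5′ to 3′ on the strand of the gene, from the RefSeq copy of build GRCm38 (mm10).
Hes1 upstream site, chr16:30060139-30060352 (+): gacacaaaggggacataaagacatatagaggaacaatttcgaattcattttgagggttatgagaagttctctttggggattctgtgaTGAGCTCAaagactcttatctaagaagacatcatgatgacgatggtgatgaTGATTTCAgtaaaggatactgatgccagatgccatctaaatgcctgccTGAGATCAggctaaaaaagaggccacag
Heyl upstream site, chr4:123226017-123226197 (+): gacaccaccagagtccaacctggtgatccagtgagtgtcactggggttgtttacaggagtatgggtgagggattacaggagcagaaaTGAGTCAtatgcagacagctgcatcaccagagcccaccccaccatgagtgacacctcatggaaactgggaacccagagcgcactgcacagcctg
Jag1 intronic site, chr2:137098094-137098274 (-): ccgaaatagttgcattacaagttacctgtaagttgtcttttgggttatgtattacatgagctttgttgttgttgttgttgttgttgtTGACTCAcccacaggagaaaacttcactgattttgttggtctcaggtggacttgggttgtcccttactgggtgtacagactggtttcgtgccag
Notch2 intronic site, chr3:98032778-98032958 (+): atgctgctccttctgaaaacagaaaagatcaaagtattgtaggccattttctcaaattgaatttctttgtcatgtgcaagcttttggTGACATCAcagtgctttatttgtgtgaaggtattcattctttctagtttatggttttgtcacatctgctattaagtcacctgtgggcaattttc
Notch2 site in the 3′ untranslated region, chr3:98147868-98147895 (+): gaagtggcctTGACGTCActcggtgctt
Notch3 downstream site, chr17:32108876-32109056 (-): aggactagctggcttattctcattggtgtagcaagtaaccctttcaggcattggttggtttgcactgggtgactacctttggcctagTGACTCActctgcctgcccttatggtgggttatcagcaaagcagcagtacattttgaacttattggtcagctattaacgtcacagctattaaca

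The next 3 lines come from V5 promoter peaks of Jag1 and Rbpj, which held none of those motifs. They are shown for TGGGAA, the core of the motif bound by RBPJ, which is in capitals here together with its reverse complement TTCCCA.
Jag1 promoter, chr2:137117111-137117410 (-): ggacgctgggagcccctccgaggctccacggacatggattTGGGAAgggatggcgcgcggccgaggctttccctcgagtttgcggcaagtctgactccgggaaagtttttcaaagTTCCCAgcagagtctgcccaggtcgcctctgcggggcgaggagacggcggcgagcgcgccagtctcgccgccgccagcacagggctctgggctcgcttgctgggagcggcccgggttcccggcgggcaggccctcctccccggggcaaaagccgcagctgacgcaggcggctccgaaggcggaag
Rbpj promoter, upstream peak, chr5:53589211-53589510 (+): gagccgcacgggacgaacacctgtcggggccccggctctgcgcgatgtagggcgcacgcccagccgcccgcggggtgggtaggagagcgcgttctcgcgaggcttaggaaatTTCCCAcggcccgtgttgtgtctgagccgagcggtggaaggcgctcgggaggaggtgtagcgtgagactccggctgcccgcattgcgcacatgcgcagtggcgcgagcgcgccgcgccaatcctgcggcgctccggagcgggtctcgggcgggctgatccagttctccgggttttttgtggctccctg
Rbpj promoter, peak at the TSS, chr5:53590141-53590213 (+): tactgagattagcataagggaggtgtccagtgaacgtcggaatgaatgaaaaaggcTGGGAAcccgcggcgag

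RNAPOL2 or H3K27ac marked the promoters of 9 of the 10 Notch genes, and V5 was also listed at 5 of them. V5 promoter peaks lay at Notch2, Jag1, Jag2, Hes1 and Rbpj (5 of 10), against 16.6% of all coding genes. RNAPOL2 promoter peaks were found for 8 genes, all but Dll1 and Heyl (background 53.5%), and H3K27ac promoter peaks for 9, all but Dll1 (background 58.6%). Both RNAPOL2 and H3K27ac promoter peaks were listed for 8 genes (background 52.2%), at Notch3 with the marks at different TSSs, and all 5 genes with V5 were among the 8. Among coding genes with both other promoter marks, 30.4% had V5, and 5 of the 8 such Notch genes did. Heyl, with H3K27ac and no RNAPOL2, had no V5, which 8.27% of such coding genes had. Dll1 alone had no promoter peak in any list, as did 39.9% of coding genes.

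The V5 promoter peaks scored below the middle of the whole V5 list, and most of them near the middle for promoter peaks. The best V5 promoter peaks scored 84 at Jag1, 153 at Notch2, 185 at Jag2, and 196 at both Hes1 and Rbpj, all below the list median, so that 0 of the 10 genes kept a V5 promoter peak in the upper 50% of the list, as 7.3% of all coding genes did. The median best V5 promoter score over the 3640 coding genes that had a V5 promoter peak was 196. Hes1 and Rbpj each scored above 49.8% of these genes, Jag2 above 47.4%, Notch2 above 40.3% and Jag1 above 19%. At the same genes the other marks spread widely. Notch2 had an RNAPOL2 score above that of 94.6% of marked coding genes and Jag2 above 14.1%.

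**Figure D1:**
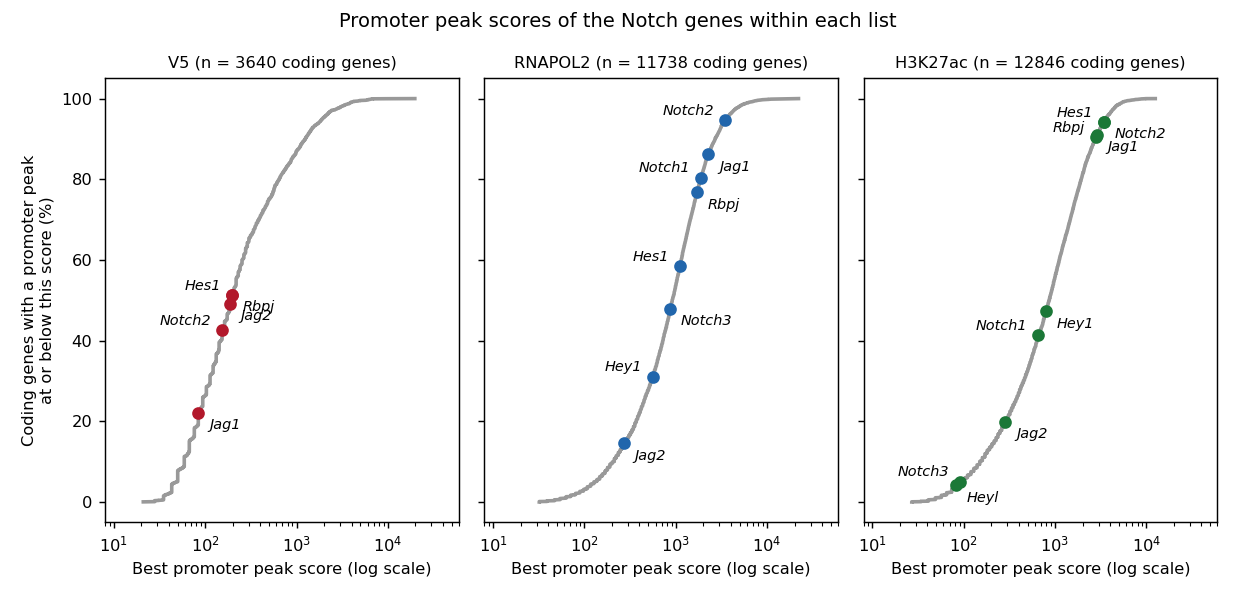
Best promoter peak score of each Notch gene (points) on the cumulative distribution over all coding genes with a promoter peak in that list (grey line), with the score on a log axis and the percentage of genes at or below it on the vertical axis. In the V5 panel the 5 genes lie between 84 and 196, whereas in the H3K27ac panel Notch2, Hes1, Jag1 and Rbpj lie between 2813 and 3457 and Notch3 and Heyl at 91 and 82.

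Away from the promoters, V5 peaks were found in the bodies of 2 genes, Notch2 and Jag1 (background 7.1%). RNAPOL2 body peaks were found in Notch2 and Heyl (2 of 10, background 11.2%) and H3K27ac body peaks in 6 genes (background 13.8%). All 10 genes had RNAPOL2 and H3K27ac peaks within 50 kb of a TSS, counting those of neighbouring genes (background 70.1% and 75.3%).

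Several of these genes have alternative TSSs, and which TSS carried the peak differed among them. Counted at the outermost annotated TSS alone, V5 was found at 3 genes (Notch2, Jag1 and Hes1; background 14.3%), RNAPOL2 at 5 (background 50.6%) and H3K27ac at 7 (background 55.7%). For Notch1 and Rbpj the outermost TSS is that of a short annotated coding sequence and had no peak. This sequence has 278 bp for Notch1-206, not a whole number of codons, and 180 codons for Rbpj-210. The TSS of the longest reading frame (2531 codons for Notch1-201, 526 for Rbpj-201) was covered by RNAPOL2 and H3K27ac in both. It lies 12841 bp inside Notch1 and 124062 bp inside Rbpj.

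**Figure D2:**
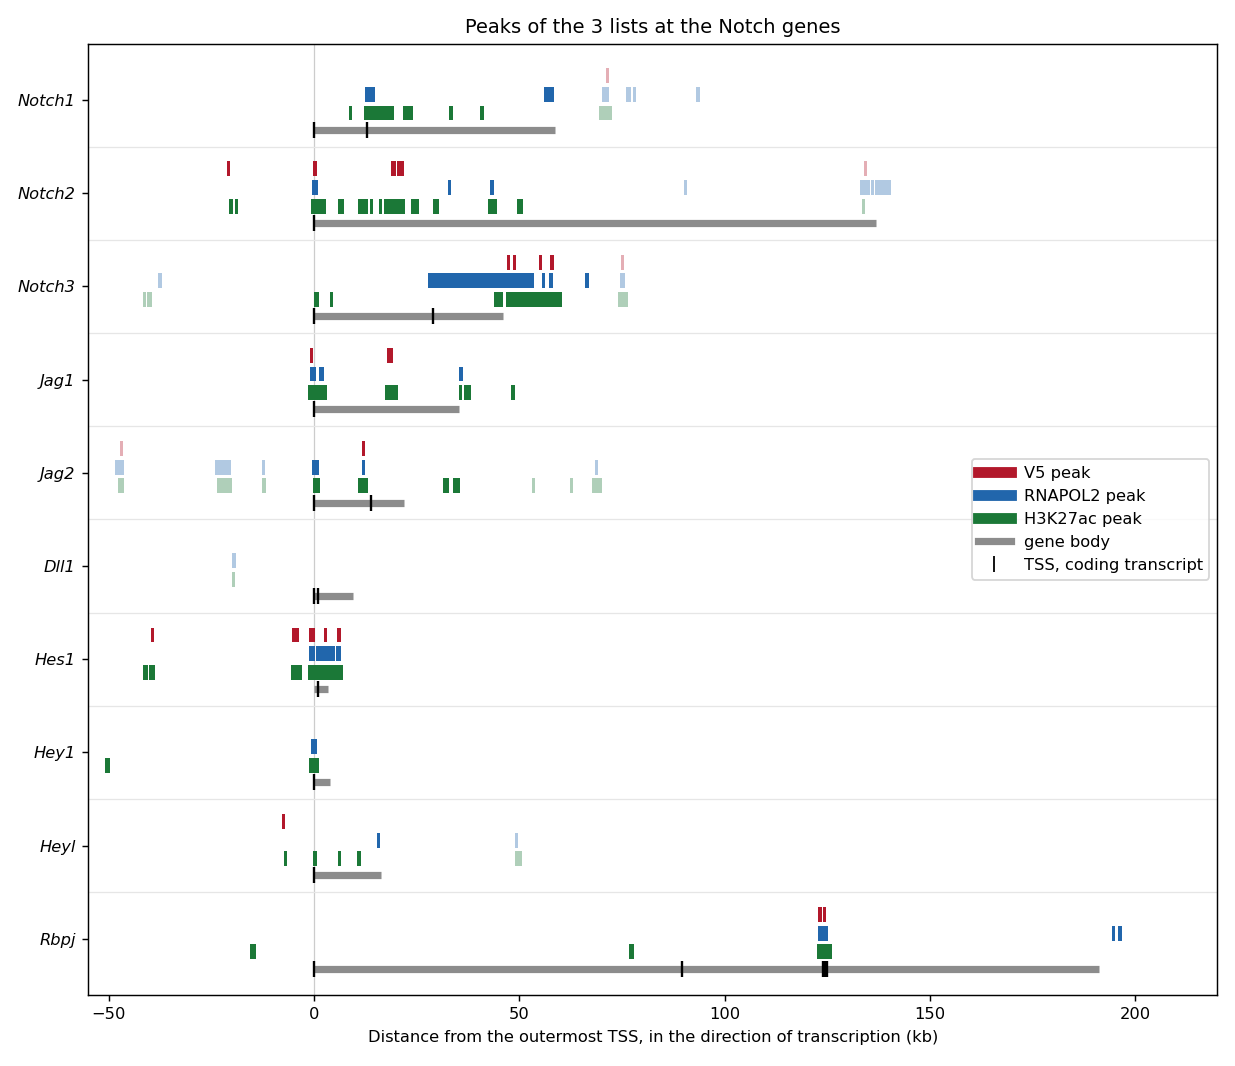
Peaks of the V5 (red), RNAPOL2 (blue) and H3K27ac (green) lists in the bodies of the 10 genes and within 50 kb of a TSS, by distance from the outermost TSS in kb. Grey bars are gene bodies, black ticks are TSSs of coding transcripts, pale boxes are nearer to a TSS of another coding gene, and boxes narrower than 0.8 kb are drawn at that width. V5 peaks sit at the starts of Notch2, Jag1 and Hes1, inside Jag2 and Rbpj, and beyond the end of Notch3, and Dll1 has no peak of its own.

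Among the receptors, Notch2 had the most peaks in its body. Its promoter at the 5′ end carried all 3: V5 at chr3:98013211-98014270 (score 153, rank 6916), RNAPOL2 (3474, rank 558) and H3K27ac (3457, rank 636). Its body held a further 4 V5, 6 RNAPOL2 and 10 H3K27ac peaks. As many body peaks were found in 0.99%, 0.74% and 0.42% of coding genes, respectively, although the Notch2 body (136.8 kb) is long beside the median of 17.4 kb. The RNAPOL2 body peaks were weak, scoring from 39 to 89 against a list median of 246, and that of score 89 had its middle past the gene end. The H3K27ac body peaks scored from 34 to 259, most of them below the list median of 212. The intronic V5 peaks formed a run of 3, scoring 122, 132 and 218, inside an H3K27ac peak of 5120 bp about the noncoding gene Gm42819, from 19353 to 21388 bp past the Notch2 start. The last V5 peak, chr3:98147641-98148170 (score 313, rank 3977), fell wholly within the 3′ untranslated region. It was the highest V5 score at Notch2 and lay within an RNAPOL2 peak of score 63 and met the edge of an H3K27ac peak of score 41, and its nearest coding TSS was that of Adam30, 12725 bp away. The printed palindrome lies 23 bp from its middle.

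Notch1, a receptor with wide use in development and blood, had no V5 peak in its promoter or body. Its long-form TSS lay under an RNAPOL2 peak (chr2:26501761-26504240, score 1884, rank 2022) and a 7130-bp H3K27ac peak (score 659, rank 7342). A further 4 H3K27ac peaks in the body scored from 120 to 215, and an RNAPOL2 peak near the 3′ end scored 98. The sole V5 peak within 50 kb (score 105) stood 69 bp from the TSS of the neighbouring gene Sec16a. Without a V5 peak of its own, Notch1 thus had an RNAPOL2 promoter score above that of 80.2% of marked coding genes and an H3K27ac score above 40.9%.

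Notch3, the receptor known for vascular smooth muscle and pericytes, was marked at its far end. At the TSS of its full reading frame (Notch3-201, 2318 codons) there was an H3K27ac peak of low score (91, rank 19760), no RNAPOL2 peak and no V5 peak. The RNAPOL2 peak that counted as a promoter peak (866, rank 5456) overlapped the internal TSSs of Notch3-202 and Notch3-203. This peak spanned 25770 bp, rank 27 of all RNAPOL2 peaks by width, and began 27.7 kb past the Notch3 start. Gm17276, an antisense gene on the other strand, begins 20 bp from the far edge of this peak, and 99.9% of the peak lies in Gm17276 and 71.2% in Notch3. ChIP-seq carries no strand, so polymerase on these overlapping genes cannot be told apart.

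Downstream of Notch3, 4 V5 peaks lay within an H3K27ac peak of 13590 bp (chr17:32106561-32120150, score 1418, width rank 53). They scored 968, 174, 81 and 73. The strongest, chr17:32108311-32109280 (rank 1272, in the top 11.93% of the list), was the highest V5 score near any of the 10 genes and overlapped an RNAPOL2 peak of score 71. Notch3 was the nearest coding gene, at 24970 bp to its closest TSS, but the pseudogene Pdxk-ps starts nearer. Among genes of any type, the peaks of score 174, 81 and 73 were nearest to a TSS of Gm17276, at 1641, 4253 and 5738 bp. The middle of the H3K27ac peak lay 56 bp from a Gm17276 TSS. Another V5 peak (234) lay inside Pdxk-ps.

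**Figure D3:**
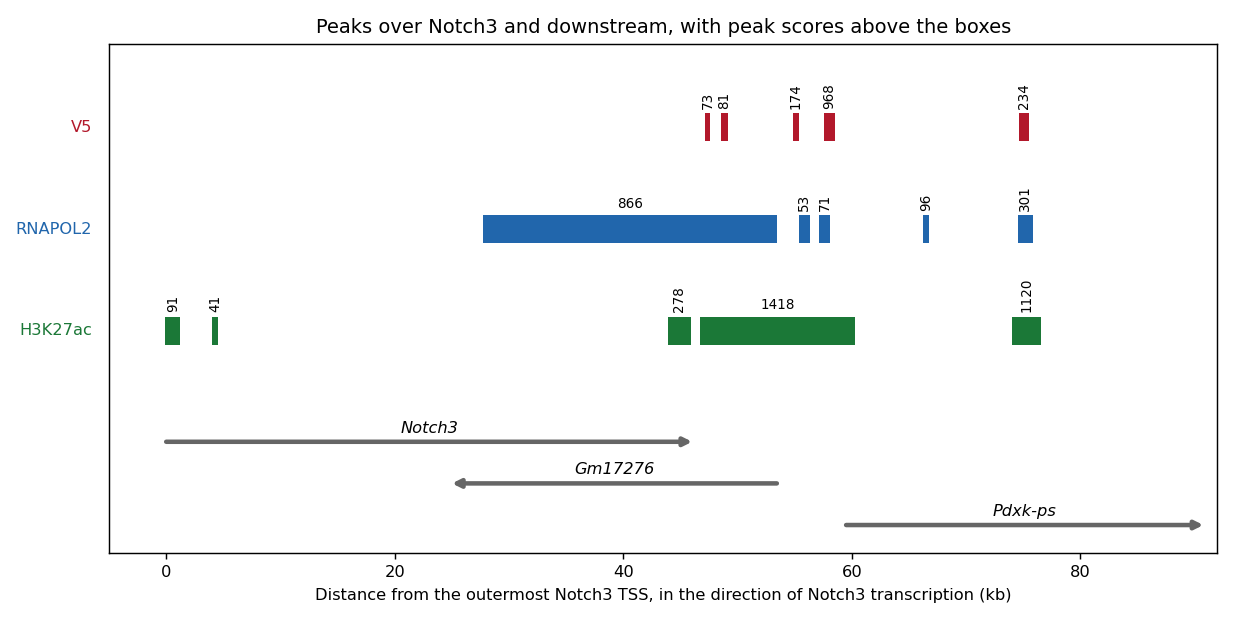
V5, RNAPOL2 and H3K27ac peaks over Notch3 and its downstream side, to scale in kb from the outermost Notch3 TSS, with the score of each peak above its box and arrows for the direction of transcription of Notch3, Gm17276 and Pdxk-ps. The RNAPOL2 peak of score 866 covers most of Gm17276 and the 3′ part of Notch3, and 4 V5 peaks sit over the H3K27ac peak of score 1418, whereas the Notch3 start has H3K27ac peaks of 91 and 41 alone.

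Among the ligands, Jag1 and Jag2 had promoter peaks in all 3 lists and Dll1 in none. At Jag1, the promoter RNAPOL2 peak scored 2266 (rank 1428) and H3K27ac 2870 (rank 1020). The V5 peak there, chr2:137116791-137117730, scored 84 (rank 9095) with its middle 616 bp upstream of the TSS. The stronger V5 peak was intronic, chr2:137097421-137098810 (score 608, rank 2153), 18529 bp past the start. It lay inside an H3K27ac peak of score 150 and touched no RNAPOL2 peak. Jag1 thus had its higher V5 score away from the promoter, while its higher RNAPOL2 and H3K27ac scores were at the promoter.

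Jag2 had weaker marks. At its outermost TSS, RNAPOL2 scored 270 (rank 9887) and H3K27ac 285 (rank 11832), with no V5. The V5 peak (chr12:112917341-112917960, score 185, rank 6102) was inside the gene, 12126 bp past the start, beside internal TSSs and with RNAPOL2 (54) and H3K27ac (203) peaks over it. A V5 peak of score 673 within 50 kb belonged by distance to Btbd6, 19 bp from that gene's TSS. For Dll1, the Delta-type ligand, the nearest peaks were RNAPOL2 (474) and H3K27ac (630) at the promoter of Fam120b, and no V5 peak lay within 50 kb.

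Rbpj, the factor through which Notch signals reach DNA, had 2 V5 peaks at the start of its longest form, Rbpj-201. They were chr5:53589001-53589720 (score 103, rank 8478) and chr5:53590141-53590780 (score 196, rank 5872). The latter covered the TSSs of 3 coding transcripts, Rbpj-201, Rbpj-208 and Rbpj-203. RNAPOL2 (1708, rank 2401) and H3K27ac (2813, rank 1068) peaks spanned both. The H3K27ac score exceeded that of 90.4% of marked coding genes. No other V5 peak lay in the 191.2-kb gene or within 50 kb of its TSSs. Rbpj-202, a coding form of 485 codons, starts at another TSS, with no peak of any list within 3 kb.

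The HES and HEY targets differed from each other. Hes1, the best-known direct Notch target, had 5 V5 peaks within 50 kb, and each was nearest to Hes1 among coding genes. They scored 196 and 84 in the promoter, 122 just past the gene, 74 at 39419 bp upstream, and 517 (chr16:30059071-30060680, rank 2535) at 4509 bp upstream. The gene of 3.4 kb lay under an H3K27ac peak of 8560 bp (score 3417, rank 655, width rank 201) and RNAPOL2 peaks of 912 and 1116, with a further RNAPOL2 peak of 557 past its end. The upstream V5 peak had its own H3K27ac peak (487) and no RNAPOL2 peak.

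Hey1, a related repressor, had RNAPOL2 (557, rank 7420) and H3K27ac (792, rank 6421) at its TSS and no V5 peak within 50 kb. Heyl had H3K27ac peaks of 54 at its outermost TSS and 82 at an internal TSS, at or below rank 20684 of 27552, and no RNAPOL2 promoter peak. Its V5 peak, chr4:123225841-123226440 (score 415, rank 3061), lay 7416 bp upstream and met the edge of an H3K27ac peak of score 49. In order of H3K27ac promoter score, Hes1 (3417) stood far above Hey1 (792) and Heyl (82).

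Counting promoters, bodies and 50-kb flanks together, 24 V5 peaks were assigned to 8 of the 10 genes, all but Dll1 and Hey1 (background 42.1% of coding genes). Their scores ran from 67 to 968 with a median of 163.5, and 7 of them exceeded the list median. Those 7 were at Notch2, Notch3 (2 peaks), Jag1, Jag2, Hes1 and Heyl, and none was within 3 kb of a TSS of its Notch gene. The Notch3 peaks of 968 and 234 lay 1445 and 337 bp from a TSS of Pdxk-ps, and the Jag2 peak 19 bp from a TSS of Btbd6. In 20 of the 24, the Notch gene was the nearest coding gene.

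**Figure D4:**
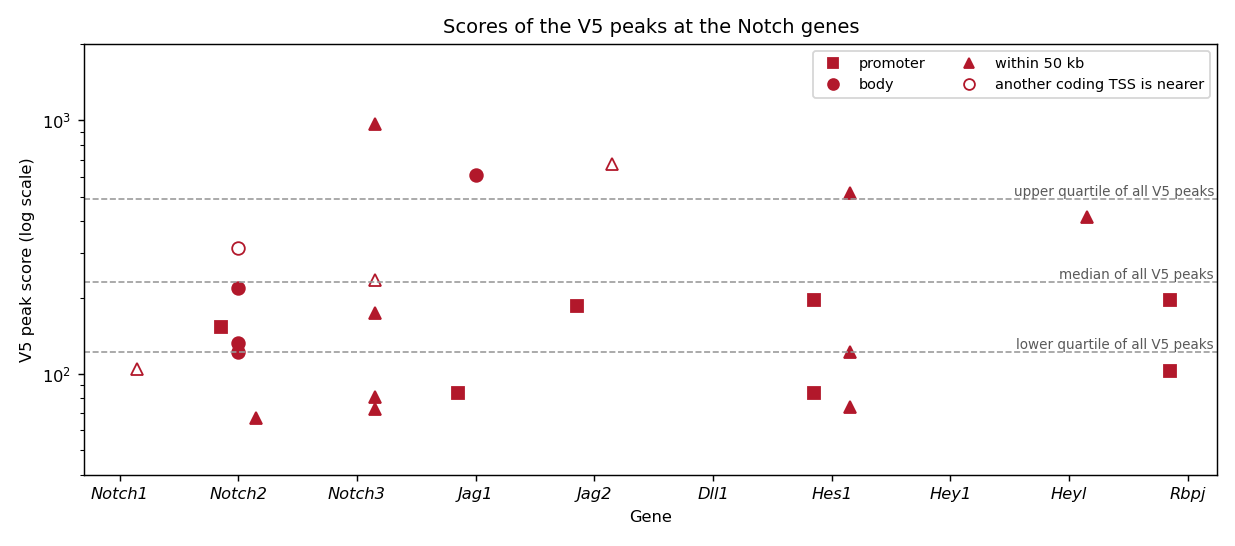
Score of each of the 24 V5 peaks (log axis) by gene, with squares for promoter peaks, circles for body peaks, triangles for other peaks within 50 kb of a TSS, open symbols where another coding TSS is nearer, and dashed lines at the quartiles of all V5 peaks. All squares lie below the median line of 230, and the points above it are a Notch3 triangle at 968, an open Jag2 triangle at 673, a Jag1 circle at 608, a Hes1 triangle at 517, a Heyl triangle at 415, an open Notch2 circle at 313 and an open Notch3 triangle at 234.

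H3K27ac overlapped 24 of the 24 V5 peaks (100%, 95% Wilson interval 86.2 to 100, for counting error only), against 73.4% of all V5 peaks. RNAPOL2 overlapped 15 (62.5%, 42.7 to 78.8), against 42%. The 11 peaks beyond 3 kb of every TSS had H3K27ac in 11 cases (background 61.3%) and RNAPOL2 in 4 (background 18.5%). The 13 peaks near a TSS of any gene had H3K27ac in 13 (background 91.1%) and RNAPOL2 in 11 (background 76.3%). Peaks at 1 gene share a locus, in some cases the same H3K27ac peak, and are not replicates. The intervals count each peak as independent and may therefore be too narrow.

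The sequences under these 24 peaks were searched on both strands for the motifs above, for the RBPJ core and for the HES N-box CACNAG. The palindrome TGACGTCA occurred in 1 peak, in the Notch2 3′ untranslated region (background 8.51% of all V5 peaks). Other TGANNTCA forms occurred in 8 peaks (background 40.3%) and TGAGTCA in 4 (background 26%). No peak held a string of more than 4 TGA or TCA units with gaps of up to 5 bases (background 10.2%). None of these was found in 13 of the 24 peaks (54.2%, background 39%), among them the promoter peaks of Notch2, Jag1, Jag2 and Rbpj. The Hes1 upstream peak held the most, with TGAGCTCA, TGATTTCA and TGAGATCA within the printed stretch, which also holds runs of 3 and 4 TGA or TCA units separated by 6 bases.

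The positions of these matches relative to the peak middle varied. TGACATCA in the Notch2 intron lay 11 bp from the middle of its peak, TGAGTCA at Heyl 33 bp, at Jag1 69 bp and at Notch3 171 bp, and the Hes1 variants from 355 to 454 bp. The Notch3 AP1 match also overlaps an N-box match. Within the central 200 bp the palindrome was held by 1 peak (background 5.35%), TGANNTCA variants by 2 (17.7%), TGAGTCA by 2 (10.4%) and a string by 0 (4.35%).

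The RBPJ core, a common short word, occurred in 19 of the 24 peaks (79.2%, background 53.4%) and in the central 200 bp of 10 (background 17.1%). The N-box, the site bound by HES repressors, occurred in 16 (66.7%, background 74.6%) and in the central 200 bp of 7 (background 31.3%). The 24 peaks had a median width of 630 bp and a median GC content of 56.3%, against 710 bp and 48% for all V5 peaks, and the part of base composition in these shares was not tested.

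RefSeq promoters, 250 bases before to 50 after a gene's start, were listed for 7 of the 10 genes, with 9 entries (Notch1, Notch2, Notch3, Jag1, Jag2, Dll1 and Rbpj). No palindrome, TGANNTCA variant or TGAGTCA was present in the 9 windows, against 1.79%, 12.5% and 5.2% of all 32851 RefSeq promoters. The RBPJ core was present in both Rbpj windows and in none of the other 7 (background 25.6%). The Rbpj windows overlap, and the match in the second (TTCCCA at chr5:53590281) also lies in the first. A match in these letters is a description of the sequence and not a measured binding site.

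The wider pathway, a list of 56 other Notch pathway genes, was marked by RNAPOL2 at 50 promoters (89.3%), by H3K27ac at 50 (89.3%) and by V5 at 15 (26.8%), against 53.5%, 58.6% and 16.6% of coding genes. Of the 49 pathway genes with both RNAPOL2 and H3K27ac promoter peaks, 30.6% had V5, against 30.4% of coding genes with both. V5 promoter peaks were listed for 5 of 8 corepressor genes, 3 of 8 coactivators, 3 of 13 genes of endocytosis and turnover, 1 of 9 proteases, 0 of 5 glycosyltransferases, 1 of 5 other receptors and ligands, and 2 of 7 other HES, HEY and target genes. The V5 promoter score was 2645 (rank 289) at Fbxw7, which encodes the F-box protein that marks the Notch intracellular part for degradation. It was 370 at Psen2, a catalytic subunit of gamma-secretase, and 318 at Crebbp, an acetyltransferase coactivator. Among these, only Fbxw7 exceeded the upper quartile of the V5 list (488). These scores, and those of Maml3, Mib2 and Kdm5a below, were above the best promoter score of 196 among the 10 Notch genes. Mastermind-like coactivators Maml3 (265) and Maml1 (129), the ligand ubiquitin ligase Mib2 (253), the demethylase Kdm5a (203), the receptor Notch4 (113) and the corepressor Ctbp1 (105) followed, with Hes7 (92, a peak nearer to another gene) and Rita1 (88, nearer to Ddx54). No promoter peak in any list was found for Dll3, Dlk1, Dlk2, Hes2 and Rbpjl.

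**Figure D5:**
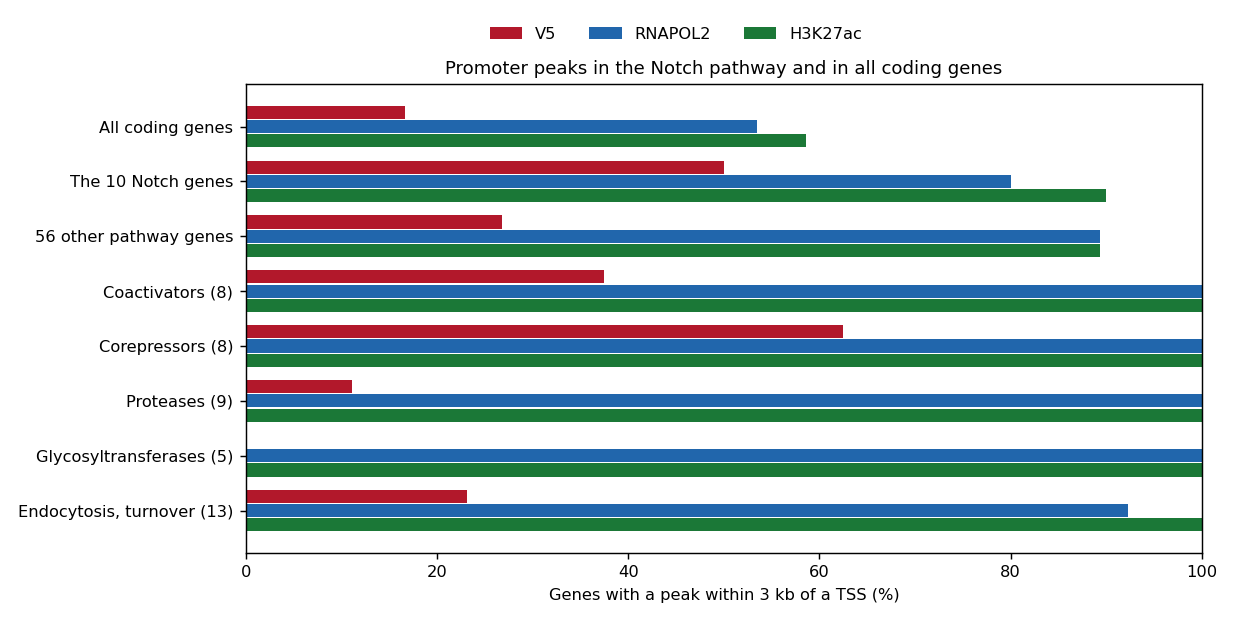
Percentage of genes with a V5, RNAPOL2 or H3K27ac peak within 3 kb of a TSS, for all 21938 coding genes, the 10 Notch genes, the 56 other pathway genes and 5 groups within them, with group sizes in brackets. The V5 bar is 16.6% for all coding genes, 50% for the 10 Notch genes and 26.8% for the other pathway genes, and it is absent for the glycosyltransferases, whose other bars reach 100%.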

How the data were processed

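ChIP-seq of mCCS tumours was carried out with anti-V5, anti-RNAPOL2 and anti-H3K27ac, with input as background. Per the submitters' processing notes and the methods, the authors aligned reads to mm10 with BWA (0.7.10-r789), called peaks with MACS2 (2.2.6; broad option for H3K27ac), and removed duplicate reads and denylisted regions. The deposited lists give each peak a whole-number score set by the authors, whose scale is not stated. The labels give 4 samples per antibody, the methods name more for V5 and RNAPOL2, and how samples were combined into each peak list is not stated. The methods give an approximate read depth per sample, but the depth behind each list and the replicate spread are not known.

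Gene models came from GENCODE vM21 (55413 genes, 141730 transcripts, chromosomes 1 to 19, X and Y) on the build of the files. A peak was counted with an overlap of at least 1 bp with a 3-kb promoter window, the rest of the body, or a 50-kb window. The lists have no replicates and the genes were chosen by name, so no test was made. The 10 genes and the pathway and marker lists were chosen with earlier results of these data known. Named genes were the 10 in full, pathway genes with a V5 promoter peak (up to 12, by score) or with no promoter peak, and markers with a promoter peak, and the 4 melanocytic markers without one were added after their values were seen. A pathway gene that the rule names is not reported here. Alternatives were promoter windows of 1 and 5 kb, flanks of 20 and 100 kb, TSSs of coding transcripts, the upper 50% of each list by score, the middle base of the peak, 50% overlap, the nearest coding gene, and the central 200 bp for motifs. Motif and overlap counting was tested on simulated data (300 implanted motifs and 500 overlap queries, 100% recovered). Python 3.11.15, numpy 2.4.6, pandas 2.3.3, scipy 1.17.1, pysam 0.24.0 and matplotlib 3.10.9 were used.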

Additional observations from a re-analysis of the deposited data

How the results depend on the processing

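Of the recomputed counts and shares, 71 stayed within 1.5 times the reported count or within its interval, and 12 moved. Restricting each list to the upper 50% by score left 0 Notch genes with a V5 promoter peak, 6 of the 56 pathway genes with one, 0 Notch genes with an RNAPOL2 body peak and 3 with an H3K27ac body peak (from 5, 15, 2 and 6). RNAPOL2 body peaks were found at 4 genes when the middle base had to lie in the body, and at 4 with a promoter window of 1 kb. At the outermost TSS alone, an alternative chosen after seeing the data, V5 promoter peaks were found at 3 genes and RNAPOL2 at 5. In the central 200 bp, TGANNTCA variants were left in 2 of the 24 V5 peaks, TGAGTCA in 2, the RBPJ core in 10 and the N-box in 7, a window shorter than the peaks by construction. The V5 promoter count was 5 with windows of 1 and 5 kb, with coding transcripts, with the middle base and with 50% overlap.

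No paired analysis was possible because each antibody has 1 list for all its samples. Limits: scores have no error and no depth, V5 peaks below the authors' threshold are not seen, distance does not show which gene a peak acts on, and peaks are not RNA levels.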
